A study of Mus musculus with 2 samples.

Results

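Accessible chromatin lying over coding exons was examined in mouse regulatory T cells, apart from promoters and gene ends. A region of replicate 1 counted as a coding exon region where it overlapped a region of replicate 2 by at least 1 bp and its midpoint lay inside an annotated coding exon (CDS) of GENCODE on mm10. The midpoint also had to lie over 1 kb from any annotated transcript start and over 1 kb from any 3′ end of a protein-coding transcript. This gave 573 coding exon regions among 64172 regions of replicate 1 that replicate 2 overlapped, and among 68832 regions of replicate 1 on chromosomes 1 to 19, X and Y. The same rule with the lists exchanged gave 595 regions among 63827. The rule read positions and overlap alone, so signal, summit position, base composition and sequence motifs are measures that it did not use. Summit position and base composition are still tied to it, because the summit lies in a region whose midpoint is in CDS.

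Open DNA had been tagged with a transposase (ATAC-seq, per the labels) in primary regulatory T cells of C57BL/6NJ mice. The single group holds 2 libraries, biological replicates 1 and 2, which share a donor identifier: it is not known whether they are separate animals, and differences between them may be technical. The names of the list entries mention 72 hours, ASTARR and insert without explaining the last 2 terms, so it remains unknown whether these are plain ATAC-seq libraries. The labels name no agent or genotype change, list the age as unknown, and link a CD4 T cell differentiation protocol that was not used here. Promoter regions were present in both replicates at 5 of 5 regulatory T cell genes (Foxp3, Il2ra, Ctla4, Ikzf2 and Tnfrsf18) and at 4 of 4 T cell genes (Cd3e, Cd3d, Cd4 and Cd28). They were also present at 1 of 4 B cell genes (Pax5), at 1 of 4 myeloid genes (Cd14) and 0 of 3 hepatocyte genes. The lists carry no read counts, so depth cannot be stated. With 1 group there is no contrast between conditions, and no p-value is given.

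Coding exons are constrained by the protein they encode, yet the same bases can also be read by transcription factors. Enhancers that lie inside exons, binding of the insulator protein CTCF within coding sequence, and promoters of shorter transcripts that start inside a gene are all known from other mammalian studies. In T cells, AP-1, NFAT, ETS and RUNX factors occupy many distal elements, while SP/KLF factors bind GC boxes that are common in CpG-rich promoters.

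Windows of 200 bp centred on the summit of replicate 1 show the DNA at the strongest coding exon regions, by deposited signal or -log10 q, and at the strongest that held each main motif. All are on the plus strand of mm10, and capitals mark matches, on either strand, to the site of CTCF, AP-1 (TGANTCA), ETS (CCGGAAG or CAGGAAG), RUNX (TGTGGT), NFAT (GGAAAA) or SP/KLF (GGGCGG). The window in Notch3, the highest by signal, is chr17:32143233-32143432 and holds none of these sites. That of Rasip1 is chr7:45628787-45628986, with a CTCF site and SP/KLF sites in the CDS. That of Klf1 is chr8:84903119-84903318 and that of Angptl6, the highest by -log10 q, is chr9:20878218-20878417, both with SP/KLF sites in the CDS. That of Zfp51 is chr17:21463595-21463794, with an ETS and a RUNX site in the CDS. That of Inhbe is chr10:127350735-127350934, with an NFAT site in the CDS. That of Slc6a19 is chr13:73685626-73685825, whose AP-1 site lies outside the CDS. A match is a description of letters and not of binding.
Notch3: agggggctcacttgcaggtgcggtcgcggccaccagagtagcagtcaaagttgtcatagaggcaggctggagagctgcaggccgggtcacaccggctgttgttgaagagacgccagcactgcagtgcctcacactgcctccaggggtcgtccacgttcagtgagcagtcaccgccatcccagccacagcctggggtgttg
Rasip1: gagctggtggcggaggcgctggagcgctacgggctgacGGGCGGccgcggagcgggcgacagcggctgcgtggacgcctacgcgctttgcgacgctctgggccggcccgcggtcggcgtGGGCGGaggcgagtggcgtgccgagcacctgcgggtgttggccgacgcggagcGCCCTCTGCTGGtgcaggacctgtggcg
Klf1: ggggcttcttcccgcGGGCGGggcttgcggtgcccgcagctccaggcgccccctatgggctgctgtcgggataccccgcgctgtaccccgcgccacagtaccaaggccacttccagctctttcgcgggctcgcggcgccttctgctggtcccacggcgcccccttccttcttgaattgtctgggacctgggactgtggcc
Angptl6: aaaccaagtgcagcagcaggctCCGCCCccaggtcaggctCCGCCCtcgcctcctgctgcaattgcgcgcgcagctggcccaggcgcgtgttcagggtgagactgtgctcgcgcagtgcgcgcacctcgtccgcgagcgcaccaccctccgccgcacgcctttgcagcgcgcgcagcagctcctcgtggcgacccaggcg
Zfp51: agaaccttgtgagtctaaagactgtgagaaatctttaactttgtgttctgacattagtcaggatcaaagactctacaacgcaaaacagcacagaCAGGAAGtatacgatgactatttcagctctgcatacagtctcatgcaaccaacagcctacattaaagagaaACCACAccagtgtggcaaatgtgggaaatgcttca
Inhbe: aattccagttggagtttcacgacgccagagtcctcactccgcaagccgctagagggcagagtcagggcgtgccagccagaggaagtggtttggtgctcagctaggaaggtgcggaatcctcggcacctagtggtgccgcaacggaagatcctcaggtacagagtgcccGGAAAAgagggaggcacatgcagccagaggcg
Slc6a19: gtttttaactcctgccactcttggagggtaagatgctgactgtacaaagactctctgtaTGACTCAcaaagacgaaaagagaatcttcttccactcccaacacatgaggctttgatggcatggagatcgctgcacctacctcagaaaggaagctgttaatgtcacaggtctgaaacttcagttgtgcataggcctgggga

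Shorter stretches show the CTCF and AP-1 sites whose centre lay within the coding bases of an exon, for the 6 regions of each kind highest by signal. They were picked by this order after values were seen. Each is written 5′ to 3′ on a strand that carries the motif, with the match in capitals between 10 flanking bases. The CTCF sites lie at chr7:45628949-45628980 in Rasip1 (minus strand), chr14:20661152-20661183 in Synpo2l (minus), chr14:31272358-31272389 in Dnah1 (plus), chr4:41614327-41614358 in Dnaic1 (minus), chr1:172368963-172368994 in Kcnj10 (minus) and chr17:26120323-26120354 in Tmem8 (plus).
CTCF site in Rasip1: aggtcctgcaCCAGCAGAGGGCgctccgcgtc
CTCF site in Synpo2l: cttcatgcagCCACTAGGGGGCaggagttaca
CTCF site in Dnah1: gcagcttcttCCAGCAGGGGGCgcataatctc
CTCF site in Dnaic1: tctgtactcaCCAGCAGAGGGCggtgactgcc
CTCF site in Kcnj10: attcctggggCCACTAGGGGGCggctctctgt
CTCF site in Tmem8: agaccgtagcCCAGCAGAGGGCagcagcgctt

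The AP-1 pattern TGANTCA reads the same on both strands, so its matches are written on the plus strand. The AP-1 sites lie at chr13:112999026-112999052 in Mcidas, chr3:32438044-32438070 in Pik3ca, chr12:51938061-51938087 in Heatr5a, chr8:46818792-46818818 in Irf2, chr4:19646278-19646304 in Gm12353 and chr6:134450926-134450952 in Lrp6. All 6 carry the same heptamer between unlike flanks.
AP-1 site in Mcidas: tcggtgaatcTGAGTCAcagtgagctg
AP-1 site in Pik3ca: aagtaccctcTGAGTCAgtacaaggtg
AP-1 site in Heatr5a: tgatccttacTGAGTCAgcagatccac
AP-1 site in Irf2: aagaaccagtTGAGTCAtctttggggc
AP-1 site in Gm12353: tgcacgtttaTGAGTCAgccccactaa
AP-1 site in Lrp6: gcacaggttcTGAGTCAtagttcacgt

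Coding exon regions were a small class whose density was close to that of intron regions. They made up 0.893% of replicated regions in replicate 1 and 0.932% in replicate 2, a mean of 0.913% ± 0.028 (SD, n = 2), while the coding bases that could hold them, 19.9 Mb, make up 0.752% of the ungapped genome. That is 29.3 ± 0.781 coding exon regions per Mb of eligible CDS (SD, n = 2). Introns held 26.5 ± 0.116 regions per Mb under the same limits, intergenic DNA 12.9 ± 0.0419, exon bases that are not coding 31.5 ± 0.514, the zones within 1 kb of coding 3′ ends 37.96 ± 0.324, and those within 1 kb of start sites 111 ± 0.362. The density over coding exons was 1.11 ± 0.034 times that of introns, 2.27 ± 0.068 times that of intergenic DNA and 0.264 ± 0.008 times that of start sites (SD, n = 2 each). Most regions centred on CDS lay near an annotated transcript start. Of 3075 replicated regions of replicate 1 with a midpoint in CDS, 2257 were within 1 kb of a start of any transcript, starts inside genes included. A further 245 were within 1 kb of a coding 3′ end.

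Agreement between the libraries was like that of other distal classes. Without the demand for overlap, replicate 1 held 630 coding exon regions and replicate 2 held 781. Replicate 2 overlapped 91.0% of those of replicate 1, and replicate 1 overlapped 76.2% of those of replicate 2. For intron regions these shares were 91.5% and 77.6%, and for start site regions 97.2% and 92.0%.

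**Figure D1:**
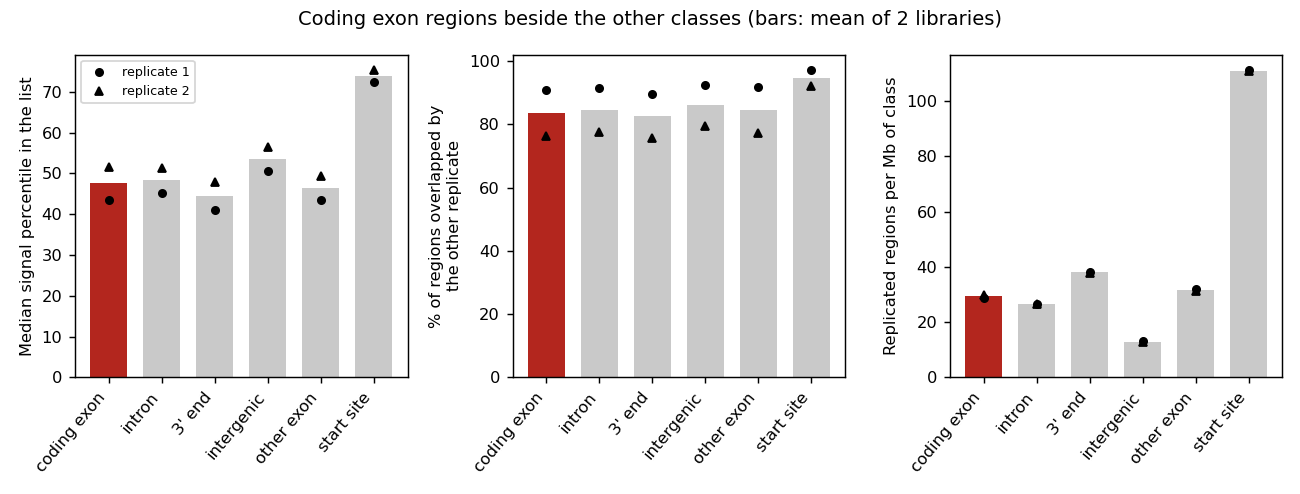
Coding exon regions (red) beside the other region classes (grey), as the median signal percentile within each list, the percent of regions overlapped by the other replicate, and replicated regions per Mb of the class. Bars are means of 2 libraries, circles replicate 1 and triangles replicate 2. Start site regions stood highest in all 3 panels, while coding exon and intron bars were of like height.

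The label was checked against where the signal peaks, since the rule read the midpoint and not the summit. Both points lie in the same region, so the share of summits in CDS is partly set by the rule. The summit lay in a CDS exon in 321 of 573 regions in replicate 1 (56.0%) and in 317 in replicate 2 (55.3%). It did so in both libraries in 280 (48.9%), in 1 library in 78 (13.6%) and in neither in 215 (37.5%). CDS covered a median of 42.8% of a region's width, with an interquartile range of 25.4% to 67.4%, and 81 regions were over 90% coding. So the name holds for the centre of each region, while in most of them more bases were non-coding than coding. A single coding exon was touched by 453 regions (79.1%), and 120 reached 2 or more. The overlapping region of replicate 2 had its own midpoint in an eligible coding exon in 374 cases (65.3%), in an intron in 160 (27.9%), in other exon sequence in 22, in a start site zone in 14 and in a 3′ end zone in 3.

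**Figure D2:**
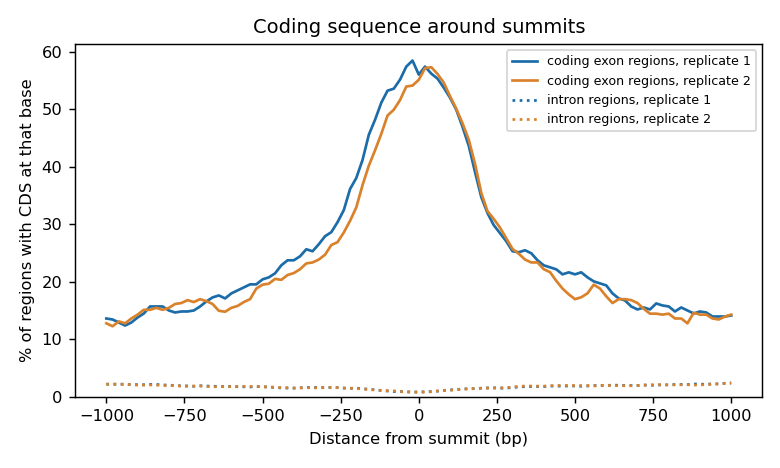
Percent of regions with CDS at each distance from the summit, in bp, for coding exon regions (solid lines) and intron regions (dotted lines) in replicate 1 (blue) and replicate 2 (orange). In coding exon regions the share stood highest near the summit, reaching 58.5% in replicate 1 at 20 bp before it, and was 14.0% at 980 bp after it. The classes were set by whether the midpoint lay in CDS, so the shapes of both kinds of line near the summit are partly fixed by the rule.

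The regions were of usual size and mostly solitary. Their median width was 585 bp in replicate 1 (range 222 to 2940 bp), and that of the overlapping regions of replicate 2 was 684 bp. Intron regions had median widths of 566 bp in replicate 1 and 636 bp in replicate 2, and start site regions 1070 bp and 1143 bp. The summits of the 2 libraries lay a median of 26 bp apart. The next region of replicate 1 was a median of 5023 bp away, and 79 coding exon regions had a neighbour within 1 kb. The nearest annotated start was a median of 5261 bp away, and the nearest coding 3′ end 5821 bp. The host gene is the gene whose exon holds the midpoint. The start of the transcript chosen for the host gene, which need not be its nearest start, was a median of 18.3 kb away.

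By deposited signal, whose scale is not stated, coding exon regions ranked in the middle of each list. The median signal of the 573 regions stood at 5.90 for replicate 1 and 6.21 for the overlapping regions of replicate 2, which lie at percentiles 43.5 and 51.3 of their lists. For -log10 q the medians were 15.5 (replicate 1) and 24.8 (replicate 2), at percentiles 40.9 and 49.2. Intron regions lay at signal percentiles 45.2 and 51.3, and start site regions at 72.5 and 75.4. The difference between coding exon and intron regions was thus smaller than that between the 2 lists. The top 10% by signal in both lists held 22 of the 573 regions and the bottom 10% in both 35, while the top 10% by -log10 q in both held 16. In replicate 1 alone, the top 10% by signal held 4.54% of coding exon regions and 4.66% of intron regions. The bottom 10% held 10.99% and 8.69%, and the top 10% by -log10 q 2.79% and 2.95%. In replicate 2 these pairs were 5.71% and 5.94%, 7.73% and 5.46%, and 3.19% and 3.83%. Across the 573 regions, Spearman's rho between the libraries was 0.920 for signal and 0.926 for -log10 q, as a description of values that share their annotation and their method of calling.

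**Figure D3:**
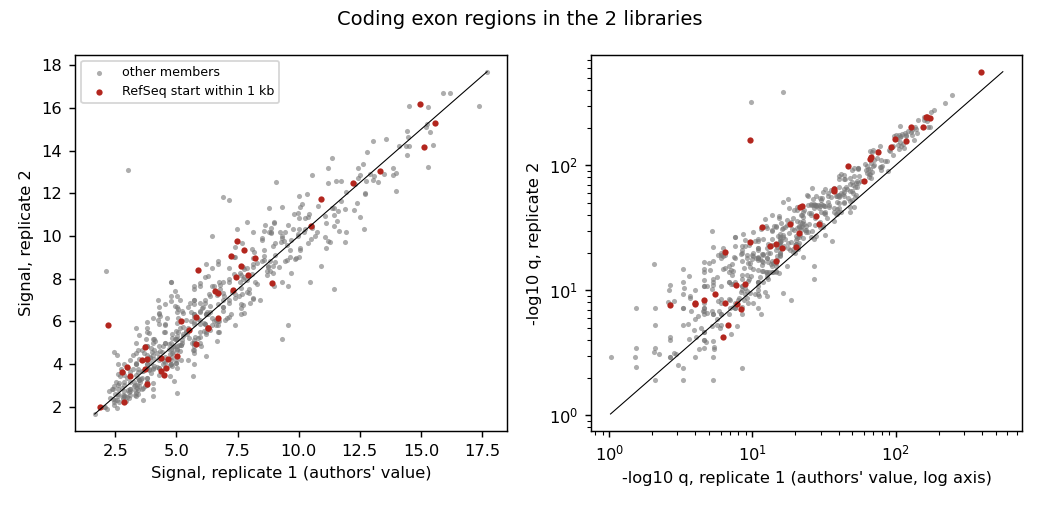
Deposited signal (left, linear axes) and -log10 q (right, log axes) of the 573 coding exon regions, replicate 1 along the x axis and replicate 2 along the y axis, with a line of equal values. Red points are the 43 regions within 1 kb of a RefSeq start. Most -log10 q values lie above the line, and a few regions stand far above it in both panels.

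A few regions far above that line had partners that were another, wider region. In Chpf, a chondroitin polymerizing factor, the signal was 3.03 in replicate 1 and 13.1 in replicate 2, where the overlapping region was 2542 bp wide against 520 bp in replicate 1. In Phf12, which encodes a PHD finger protein, it was 2.12 in replicate 1 and 8.39 in replicate 2, with widths of 1085 bp and 3295 bp. Both partners had their midpoint within 1 kb of a start site. In Il6ra, the interleukin 6 receptor, the signal was 2.20 in replicate 1 and 5.82 in replicate 2, with summits 1162 bp apart. The replicate 2 values of these 3 genes therefore describe more than the exon, and Chpf and Phf12 were chosen after their values were seen.

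The 10 strongest regions by signal lay in 10 different genes. In Notch3, a Notch receptor, coding exon 24 of 33 held a region (chr17:32143023-32143756) with a signal of 17.7 in replicate 1 and 17.7 in replicate 2. In Rasip1, a Ras-interacting protein of blood vessels, the region in coding exon 2 of 11 (chr7:45628399-45629375) had 17.4 in replicate 1 and 16.1 in replicate 2. In Klf1, an erythroid transcription factor, the region in coding exon 2 of 3 (chr8:84902558-84903747) had 16.2 in replicate 1 and 16.7 in replicate 2. These values were in the top 10% of each list, at percentiles from 97.6 to 99.4. In replicate 1 the Rasip1 region was 977 bp wide with its midpoint 1399 bp from the start of its host gene. That of Klf1 was 1190 bp wide with its midpoint at 1225 bp. The edges of both regions thus lay within 1 kb of that start, although their midpoints did not.

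Synpo2l, an actin-associated protein of muscle, had 15.9 and 16.7 in replicates 1 and 2, in a region lying wholly within its last coding exon of 2162 bp (chr14:20660849-20661870). Zfp51, a zinc finger protein, had 15.3 and 16.0, also wholly inside its last coding exon (chr17:21463464-21464180), at a GC content of 40.3%. Inhbe, an activin subunit gene, had 14.9 and 16.2 (chr10:127350569-127351214). Of the other 4 among the 10 highest, Robo3 is an axon guidance receptor, Scn8a a neuronal sodium channel, Tacr2 a tachykinin receptor and Angptl6 an angiopoietin-like secreted protein. Their signals lay between 14.5 and 15.6 in replicate 1 and between 15.1 and 16.1 in replicate 2.

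The order by -log10 q was partly different. Angptl6 led with 393 in replicate 1 and 561 in replicate 2 (chr9:20877669-20878992), followed by Klf1 with 248 and 369. Cpne6, a calcium-dependent membrane-binding protein, had 223 and 314 (chr14:55513807-55514693), and Slc6a19, a transporter of neutral amino acids, had 187 and 276 (chr13:73685388-73686141). Synpo2l, the linker histone gene Hist1h1d, the scavenger receptor gene Stab1, Pura, the multiciliogenesis regulator Mcidas and the vasohibin gene Vash1 made up the rest of the 10, between 157 and 178 in replicate 1 and between 233 and 269 in replicate 2. Hist1h1d is the exception by signal, at 6.28 and 5.71, near the middle of each list. In all, 52 regions ranked at least 20 percentile points higher by -log10 q than by signal, and 0 ranked so in the other direction. No such count for other classes stands beside it, so it cannot be read as a trait of coding exon regions. Histone and zinc finger genes have near-identical copies, so reads there may be shared between copies.

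Annotated starts do not settle every case. RefSeq, which the rule did not read, has a transcript start within 1 kb of 43 of the 573 midpoints (7.50%), against 2.995% of replicated intron regions in replicate 1. Among the 10 highest by -log10 q these were Angptl6 at 269 bp, Hist1h1d at 715 bp, Stab1 at 169 bp and Pura at 827 bp, and among the 10 highest by signal Inhbe at 956 bp and Angptl6. Of the other regions near a RefSeq start, the highest by -log10 q were those in Hist1h2be at 299 bp, Rab3ip at 25 bp, Ethe1 at 35 bp and Nova2 at 489 bp. Whether such starts are used in these cells was not tested.

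At the low end, the least supported by -log10 q included a region in Kmt2a, a histone H3K4 methyltransferase, with 2.09 in replicate 1 and 1.91 in replicate 2. Ccdc39 had 1.02 and 2.92, Chst5 1.52 and 2.92, and Dmrt2 2.06 and 3.19. The lowest value listed at all was 1.00 in each library.

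Coding exon regions were rich in GC and CpG, between intron and start site regions. The median GC content of replicate 1 regions was 53.8% and of replicate 2 regions 53.2%, against 46.1% and 46.1% in intron regions and 57.47% and 57.01% in start site regions. The eligible coding bases as a whole are 50.5% GC and the intron bases 42.2%. The ratio of observed to expected CpG was 0.350 at the median for replicate 1 and 0.334 for replicate 2, against 0.189 and 0.189 in introns and 0.645 and 0.637 at start sites. Repeats covered 6.80% and 6.89% of the median region, against 11.3% and 11.7% in introns.

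A subset was CpG rich, with a ratio over 0.6 and a GC content over 50%. It held 132 regions (23.0%) in replicate 1 and 21.5% in replicate 2, against 0.784% and 0.678% of intron regions and 54.6% and 53.7% of start site regions. At a fixed width of 200 bp around the summit the shares were 27.2% and 25.7%, against 4.02% of 115643 windows on eligible coding exons that held no region. The 132 regions were wider, with a median of 868 bp, against 527 bp in the other 441. Their signal was no higher, at percentiles 42.0 and 45.4 against 44.4 and 52.9. Of the 132, 21 lay within 1 kb of a RefSeq start. The widest coding exon regions included Crybg1 at 2932 bp, Irf2bpl at 2580 bp, Ier5l at 2555 bp and the zinc finger transcription factor Zic5 at 2127 bp, after Prob1 at 2940 bp.

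By place in the transcript, most regions lay in internal coding exons, 422 of 573 (73.6%), although such exons make up 81.9% of the eligible bases. Last coding exons held 94 regions (16.4%, against 10.3% of bases), first coding exons 32 (5.58%, against 4.17%) and genes with a single coding exon 25 (4.36%, against 3.65%). Regions of these kinds differed in make-up. The median CpG ratio was 0.305 in internal exons, 0.603 in last exons, 0.685 in first exons and 0.782 in single coding exons, and the median width was 539 bp in internal exons and 1027 bp in single ones.

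The exons were of ordinary length. The coding stretch under the midpoint had a median of 195 bp, against 175 bp when every eligible coding base is weighted alike, and the upper quartiles were 595 bp and 411 bp. Stretches over 100 and up to 200 bp held 228 regions (39.8%, against 44.3% of bases), those over 500 and up to 1000 bp held 64 (11.2%, against 8.00%), and those over 1000 bp held 92 (16.1%, against 15.4%). The longest stretches were 8367 bp in Unc13b, a synaptic vesicle priming protein, 5970 bp in Son, a splicing factor, 5916 bp in Naca, a nascent polypeptide-associated subunit, 5129 bp in Golgb1, a Golgi tethering protein, and 4990 bp in Apc2. The regions in Unc13b, Son, Naca and Apc2 lay wholly inside that stretch.

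**Figure D4:**
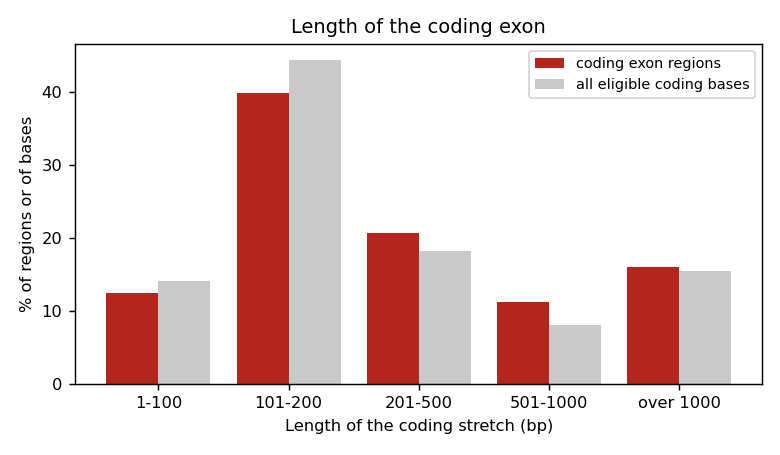
Percent of the 573 coding exon regions (red) and percent of all eligible coding bases (grey) by length of the coding stretch, in bp. Stretches over 100 and up to 200 bp hold the largest share of both, 39.8% of regions and 44.3% of bases.

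The 573 regions lay in 549 host genes, which is 2.51% of 21911 protein-coding genes. Of these genes 526 held 1 region, 22 held 2 and Sptbn4, which encodes a beta spectrin, held 3. In Sptbn4 the signals were 3.10 and 2.55 in coding exon 30 of 35, 9.07 and 12.5 in coding exon 16, and 9.78 and 10.4 in coding exon 13, replicate 1 before replicate 2. Espn, an actin-bundling protein, held a strong region in coding exon 4 of a 16-exon transcript, with signals of 12.7 and 11.99, and a weak one in a last coding exon, with 3.32 and 3.03. In Ranbp2, a nucleoporin, both regions had a low GC content (33.2% and 37.9%) and signals between 9.58 and 11.9. The other genes with 2 regions that led by -log10 q were Myo10, Golgb1, Siglec15, Srcin1, Akap12, Svep1 and Tecpr2.

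Host genes mostly had an open promoter, meaning a promoter region in both replicates. A promoter region within 1 kb of a start site of the host gene was present in both replicates for 476 of 573 coding exon regions (83.1%), in 1 replicate for 12 and in neither for 85 (14.8%). Any region whose edge reached that zone was counted, including the coding exon region itself. In Irf2bpl, for example, that region was 2580 bp wide with its midpoint 1006 bp from the start. The shares and densities below are thus partly set by holding a region, to an extent that was not tested. Counted by gene this was 455 of 549 (82.9%), beside 64.4% of all protein-coding genes and 72.0% of eligible coding bases. Genes with an open promoter held 33.1 coding exon regions per Mb of eligible CDS, and the other genes 17.4. Size enters as well: host genes had a median of 1524 bp of eligible CDS and all protein-coding genes 497 bp. A coding exon region was held by 1.13% of genes with 1 to 500 bp of eligible CDS and by 10.4% of those with over 5000 bp. Within these size classes 72.3% and 85.4% of the genes holding one had an open promoter, against 67.0% and 69.4% of all genes of the class.

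Some of the strongest coding exon regions lay in genes whose promoter was not open in both replicates. By -log10 q the 8 highest were in Cpne6, Synpo2l, Hist1h1d, Fgf23, a phosphate-regulating hormone of bone, Asb2, a ubiquitin ligase subunit, Tacr2, Nol3, an apoptosis repressor, and Inhbe. The call reads GENCODE starts, and the regions of Hist1h1d and Inhbe lie within 1 kb of a RefSeq start, as given above. The Fgf23 region (chr6:127079693-127080589) had a signal of 14.4 in replicate 1 and 14.9 in replicate 2, and that of Asb2 (chr12:103325217-103325913) had 14.4 and 14.2. The 85 regions whose host had a promoter region in neither replicate stood at signal percentiles 51.0 and 53.7, against 42.0 and 51.3 for the 476 whose host was open in both.

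Few of the listed genes held a coding exon region. Over 13 lists, 16 of 374 matched genes did (4.28%), beside 2.51% of all protein-coding genes, but per 100 kb of eligible CDS the listed genes held 1.96 regions and all genes 2.87. None of the 29 genes of the regulatory T cell core did. Of these, 26 had an open promoter, and their eligible CDS is 19.3 kb. That list does not hold Il10, an immunosuppressive cytokine gene made by regulatory T cells among others, which was a host and is named after its values were seen. Its region in coding exon 3 of 5 (chr1:131020586-131022254) had a signal of 4.71 in replicate 1 and 4.94 in replicate 2, with an open promoter. CDS covered 12.8% of it, and the summit lay outside CDS in both libraries. None of the 33 scaffold and cytoskeleton genes did, over 145 kb, nor any of 16 housekeeping, 12 B cell or 14 myeloid genes.

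Among T cell receptor and costimulation genes, 2 of 46 held one. In Cd5, an inhibitory receptor, the signal in coding exon 5 of 10 was 2.50 in replicate 1 and 2.62 in replicate 2. In Rasgrp1, which activates Ras below the antigen receptor, it was 4.09 in replicate 1 and 5.20 in replicate 2, in coding exon 8 of 17. Both genes lie below the medians of 5.90 and 6.21 over all coding exon regions. Among 51 T cell transcription factors Nfkb2, an NF-kB subunit, was the 1 host, with 2.06 and 1.97. Among 31 cytokine receptor and JAK-SOCS genes there were Il6ra and the kinase gene Tyk2, with 4.48 and 3.503, and among 28 integrin, adhesion and homing genes Pecam1, with 3.01 and 2.78.

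Some chromatin regulators and phosphoinositide signalling genes held stronger ones. Of 53 chromatin genes 4 were hosts: the remodeller Chd7 (chr4:8853867-8854484) with 14.0 in replicate 1 and 12.1 in replicate 2, the remodelling ATPase gene Smarca2 with 9.55 and 7.67, the DNA demethylating enzyme gene Tet1 with 3.82 and 3.84, and Kmt2a with 2.86 and 2.50. Of 22 genes of the PI3K, mTOR and phosphatase list 2 were hosts. Pik3ca, the p110 alpha catalytic subunit, had 10.6 in replicate 1 and 10.5 in replicate 2 (chr3:32437414-32438676), and the Akt phosphatase gene Phlpp1 had 7.16 and 8.01. Lists of other tissues also had hosts: 2 of 22 neuron genes, the glutamate receptor gene Grin1 with 7.91 and 7.96 and Bsn with 6.35 and 5.58, and 2 of 18 muscle genes, Ryr1 with 6.52 and 7.68 and Neb with 5.49 and 4.17. Per 100 kb of eligible CDS the neuron list held 3.76 regions and the muscle list, whose genes are long, 1.15, beside 2.87 over all genes.

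Exact letters of each motif, on either strand, were looked for up to 100 bp from the summit. The CTCF site, sought by its consensus, was present in 8.90% of coding exon regions in replicate 1 and 8.57% in replicate 2, a mean of 8.74% ± 0.233 (SD, n = 2). It was in 4.94% ± 0.047 of intron regions, in 5.95% ± 0.100 of intron regions weighted to the same GC content, in 2.36% ± 0.004 of start site regions and in 0.0891% of the 115643 coding exon windows with no region. The difference from introns was larger than the spread between libraries. The share in regions within 1 kb of coding 3′ ends was 9.25% ± 0.047. Of the 51 regions of replicate 1 with a CTCF site, 48 had it at both summits, and 23 of the 51 sites lay within CDS (45.1%), where 55.7% of the bases searched were CDS. The 51 stood at signal percentiles 48.9 and 56.5, and the regions without the site at 42.9 and 51.3. The sites printed above from Rasip1 to Tmem8 are among the 23.

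AP-1 sites were fewer than in introns, by more than the spread between libraries. They were in 12.4% ± 0.517 of coding exon regions, in 24.1% ± 0.345 of intron regions and in 18.6% ± 0.207 of intron regions at the same GC content (SD, n = 2 each), in 7.31% ± 0.032 of start site regions and in 4.77% of coding exon windows with no region. Of 69 regions with the site, 60 had it at both summits, and 42.5% of the 73 matches lay within CDS. In the CpG-rich subset the share was 2.27% and in the rest 15.0%. The strongest with the site, besides Slc6a19, Stab1, Mcidas and Pik3ca, lay in Twsg1, with a signal of 13.9 and 12.9, and Adgrd1, with 12.8 and 13.9.

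ETS sites were in 19.4% ± 1.48 of coding exon regions, 18.5% ± 0.034 of intron regions and 10.9% of coding exon windows with no region. RUNX sites were in 20.5% ± 1.63, 24.0% ± 0.043 and 14.2%, in the same order. Weighted to the same GC content, introns had 20.7% ± 0.221 for ETS and 19.3% ± 0.099 for RUNX, differences within the spread between libraries. The ETS and RUNX sites of Zfp51, printed above, are examples inside the CDS. NFAT letters were in 12.6% ± 1.24 of coding exon regions, 15.9% ± 0.222 of intron regions and 19.5% of coding exon windows with no region. Weighted to the same GC content the closed exons had 13.5% ± 0.516, within the spread between libraries.

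SP/KLF sites were in 17.6% ± 3.25 of coding exon regions, 5.27% ± 0.020 of intron regions and 46.8% ± 0.229 of start site regions (SD, n = 2 each). At the same GC content introns had 19.8% ± 0.966 and coding exon windows with no region 12.4% ± 0.283. In the CpG-rich subset the share was 42.4%, against 13.2% in the rest. E protein sites (CAGCTG) were in 17.5% ± 1.92 of coding exon regions and 13.0% ± 0.100 of intron regions, and 70.4% of the matches lay within CDS. Weighted to the same GC content, the intron share of E protein sites was 16.9% ± 1.55, within the spread between libraries, as was that of SP/KLF sites. TCF/LEF sites (ATCAAAG or TTCAAAG) were in 7.17% ± 1.504 of coding exon regions and 10.7% ± 0.075 of intron regions, or 7.27% ± 0.171 at the same GC content. E-box letters (CACGTG) were in 5.05% ± 0.256 of coding exon regions, 30 regions of replicate 1. Intron regions had 2.96% ± 0.018, and 4.15% ± 0.095 at the same GC content. The coding exon share was above both intron values by more than the spread between libraries, which does not settle a difference on so few regions. Start site regions had 6.14% ± 0.068, or 5.13% ± 0.091 at the same GC content, the latter within the spread of the coding exon share. STAT letters (TTCCNGGAA) were in 1.80% ± 0.073 of coding exon regions, 2.75% ± 0.009 of intron regions and 1.91% ± 0.038 at the same GC content. Forkhead letters (TGTTTAC) were in 1.04% ± 0.754, 2.44% ± 0.026 and 2.02% ± 0.009, in the same order. They rest on 10 and 9 regions of replicate 1, too few to call either motif rarer than in introns at the same GC content. NF-kB sites were in 7.95% ± 1.12 of coding exon regions, 8.32% ± 0.081 of intron regions and 11.7% ± 0.501 at the same GC content. None of the 18 motifs was found in 114 of the 573 regions, a count with no matching one for other classes.

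**Figure D5:**
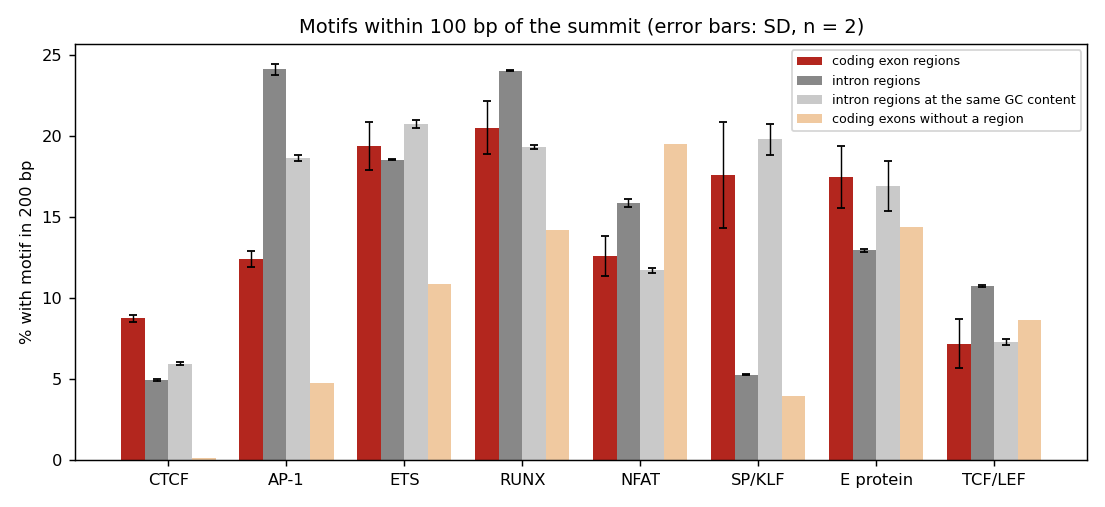
Percent of regions with each motif within 100 bp of the summit, in coding exon regions (red), intron regions (dark grey), intron regions weighted to the same GC content (light grey) and coding exon windows without a region (tan). Bars are means of 2 libraries and error bars the SD, except the last group, which is a single value. Of the 8 motifs drawn, CTCF stood above and AP-1 below both intron bars by more than the SD, which is between the 2 lists and not over regions.

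At the limits of the rule, the 2 regions just inside the 1 kb limit from a start were in Irf2bpl at 1006 bp and Rwdd2a at 1008 bp, with signals of 6.22 and 6.34, and 4.97 and 5.17. Just outside it were regions in Npepps and S1pr4, both at 996 bp, with 11.2 and 8.91, and 3.97 and 3.74. Just inside the limit from a coding 3′ end were Adra2c at 1028 bp and Sema6b at 1038 bp, with 3.34 and 2.67, and 4.44 and 4.00. Just outside it were Numa1 at 1000 bp and Fam171a2 at 991 bp, with 6.59 and 7.18, and 4.29 and 4.30.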

How the data were processed

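The deposited files are narrowPeak lists on mm10, 1 for each library, per the labels. Aligner, peak caller and any shift of reads for the transposase: not given in the sources used here. The authors gave each region a signal on no stated scale, a -log10 p and a -log10 q, and a score that stops at 1000 and was not used. These deposited values were used as ranks within a list or set side by side as the authors' values. Depth is unknown, and no interval resting on it was computed. Chromosomes 1 to 19, X and Y were used, and overlap was at least 1 bp.

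Region midpoints were classed against GENCODE M21 on GRCm38, in the order start site (within 1 kb of any transcript start), 3′ end (within 1 kb of a coding transcript's end), coding exon, other exon, intron and intergenic. Motifs were sought as exact letters within 100 bp of each summit. Intron, start site and closed exon shares were also weighted to the GC content of coding exon regions in bins of 5 percentage points. Python 3.11.15 with numpy 2.4.6, pandas 2.3.3 and scipy 1.17.1 was used, and the procedures were tested on simulated data. No test between groups was possible.

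The class, the 13 gene lists and the motifs were chosen with earlier results of these data known. Named genes followed a rule: the 10 highest by signal percentile and by -log10 q, the 5 lowest by -log10 q, the 10 genes with most regions, the 3 highest in each gene list, the 5 widest, the 5 in the longest exons, and 2 on each side of each limit. Not every item that these rules take is reported here. The CTCF and AP-1 sites inside exons, the regions with CTCF or AP-1 listed by signal, the hosts with no open promoter, Il10 and the check against RefSeq starts were chosen after values were seen. Alternatives covered the list used, the -log10 q minimum, the overlap, the summit, the distance, the start sites, the CDS set, the motif window and leaving out each replicate.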

Additional observations from a re-analysis of the deposited data

How the results depend on the processing

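The number of coding exon regions, 573, moved beyond 1.5 times with 2 kb limits alone, to 360. The share of replicated regions, 0.913%, was 0.873% at a -log10 q of 5 or more, 0.851% with the summit in place of the midpoint, 0.588% with 2 kb limits, 1.22% with starts of protein-coding transcripts alone, 0.847% without regions near a RefSeq start, an alternative chosen after seeing the data, and 0.915% to 0.999% leaving out a replicate. The share with the summit in CDS, 55.7%, was 53.7% in the list of replicate 2, 54.5% at a -log10 q of 5 or more, 89.3% with the summit rule, which demands it in the list it is read from, 52.1% with 2 kb limits, 54.8% without regions near a RefSeq start and 56.98% to 57.11% leaving out a replicate. The median percentiles, 47.4 for signal and 45.0 for -log10 q, were 40.5 to 40.9 and 37.7 to 39.4 leaving out a replicate, and that of -log10 q was 51.1 at a minimum of 5. The share with an open host promoter, 81.5%, was 84.0% with coding starts alone and 80.4% to 83.8% leaving out a replicate. The CTCF share, 8.74%, was 7.80% within 50 bp of the summit, 9.30% at a -log10 q of 5 or more and 9.32% without regions near a RefSeq start, while introns had 4.18% within 50 bp and 5.35% at that minimum. Within 50 bp AP-1 was in 8.38%, ETS in 10.3%, RUNX in 12.7% and SP/KLF in 11.9%, where introns had 16.6%, 11.3%, 14.0% and 3.11%, so that the ETS share was above that of introns within 100 bp and below it within 50 bp. The other 49 values of 76 alternatives moved by less than the spread between libraries or, for counts, within 1.5 times. Beyond what an alternative itself sets, the cause was not tested. No paired analysis was possible because there was 1 group. Unknown depth, and a donor identifier shared by both libraries, limit every value.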
